A study of Mus musculus with 6 samples.

Results

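The genes described here encode enzymes that make, lengthen and desaturate fatty acids, together with a synthetase that activates them. They are Acly, Acaca, Fasn, Elovl5, Elovl6, Scd1, Scd2, Fads1, Fads2 and Acsl3, chosen by name. All 10 were present among the 25638 genes of the deposited FPKM table, and all 10 passed the filter on low values among 10727 that did so, which asked for 2 or more libraries with 1 FPKM or above. Of these, 3 passed only through the groups in which they were high, since Scd1, Fads1 and Fads2 stayed under 1 FPKM in both TAMo libraries. FPKM divides the reads of a gene by its length in kilobases and by the M of reads counted in the library, so it can be compared between genes.

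The libraries came from OT-I cells, mouse CD8+ T cells with a transgenic receptor for an ovalbumin peptide, labelled wild type. In every group these cells were stimulated with OVA257-264 peptide for 48 hours. They shared the culture with TANs, with TAMos or with vehicle alone, and each of the 3 groups had 2 libraries. TANs were sorted as CD11b+Ly6G+Ly6Clow cells and TAMos as CD11b+Ly6G-Ly6Chigh cells, and both came from the spleen of mice bearing LLC tumours, a Lewis lung carcinoma, not from the tumour itself. The T cells were purified from the culture before RNA was isolated. What the names TAN and TAMo abbreviate is not stated in the labels. Nor do the labels tell separate cultures or animals from repeat libraries, so every p-value here is set against a spread between samples that may be only technical.

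Fatty acids are built in the cytosol from acetyl-CoA that is split from citrate, carboxylated to malonyl-CoA and joined into palmitate. At the endoplasmic reticulum elongases lengthen palmitate and dietary fatty acids, and desaturases put in double bonds, which sets the fluidity of membranes and supplies precursors of signalling lipids. Many of these genes are targets of the sterol regulatory element-binding proteins, SREBPs. T cells raise the pathway on activation, when growth and division call for new membrane.

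Coding sequence is shown for Scd1 and Scd2, since these close copies differed in their values and could share reads. Over 1065 aligned coding bases of their GENCODE transcripts (mouse release 21, GRCm38, chromosome 19), 90.3% were identical, and the longest run shared without a difference was 147 bases. For Fads1 and Fads2 the identity was 67.9% with a longest shared run of 17 bases, and for Elovl5 and Elovl6 it was 62.7% with a run of 10 bases. The window printed here has 5 differences in 90 bases, the median number over such windows, and capitals mark the differing bases (coding bases 157 to 246 of Scd1 and 166 to 255 of Scd2).
Scd1: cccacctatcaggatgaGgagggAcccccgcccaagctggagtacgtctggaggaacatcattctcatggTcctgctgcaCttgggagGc
Scd2: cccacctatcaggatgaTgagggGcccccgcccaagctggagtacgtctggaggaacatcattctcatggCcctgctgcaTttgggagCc

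Promoters are shown for Fasn, which fell in both comparisons with vehicle, for Acsl3, which fell with TAMo, and for Acly, which did not pass the test there. They are the 250 bases before the RefSeq gene start on GRCm38.p6, 5′ to 3′ on the strand of the gene, and no exon is annotated in these windows. Capitals mark the CCAAT box (CCAAT, or ATTGG on the other strand) and the GC box (GGGCGG, or CCGCCC). In Acsl3 a box of each kind lies side by side, and in Fasn 2 CCAAT boxes on opposite strands overlap.
Fasn (chr11:120824548-120824797, minus strand): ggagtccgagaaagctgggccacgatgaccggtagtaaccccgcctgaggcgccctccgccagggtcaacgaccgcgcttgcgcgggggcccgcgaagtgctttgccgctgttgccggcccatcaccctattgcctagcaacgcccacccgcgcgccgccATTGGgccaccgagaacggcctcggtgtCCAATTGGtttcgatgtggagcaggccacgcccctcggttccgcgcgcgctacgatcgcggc
Acsl3 (chr1:78657575-78657824, plus strand): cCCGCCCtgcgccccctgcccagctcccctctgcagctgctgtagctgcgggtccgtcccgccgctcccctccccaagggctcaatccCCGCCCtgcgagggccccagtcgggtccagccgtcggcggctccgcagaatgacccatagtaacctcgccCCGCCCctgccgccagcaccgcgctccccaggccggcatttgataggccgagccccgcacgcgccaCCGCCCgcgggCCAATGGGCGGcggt
Acly (chr11:100528001-100528250, minus strand): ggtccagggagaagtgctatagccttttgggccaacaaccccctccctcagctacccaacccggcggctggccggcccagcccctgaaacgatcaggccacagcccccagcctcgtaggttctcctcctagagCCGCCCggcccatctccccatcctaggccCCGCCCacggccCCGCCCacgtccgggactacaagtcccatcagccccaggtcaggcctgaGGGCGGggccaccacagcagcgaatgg

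Of the 10 genes, 7 had an entry in the promoter table. CCAAT boxes lay in Fasn (3), Elovl5 (2) and Acsl3 (1), and GC boxes in Acsl3 (5), Acly (4) and Fads2 (1), while the windows of Acaca and Elovl6 held neither. The Acaca window (84195188 to 84195437 on chromosome 11) lies inside the gene as GENCODE bounds it, at an internal start, and those of Elovl5, Elovl6 and Fads2 overlap annotated exons. The CCAAT box occurred in 33.8% and the GC box in 33.0% of 32536 promoter windows of this length. A strict sterol regulatory element (TCACNCCAC, both strands), found in 1.05% of windows, matched none of the 7, and the E-box CACGTG, found in 6.04%, matched Elovl5 alone. These matches describe the letters of the windows and carry no measurement of binding.

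Low values moved in steps that corresponded to 41.6 to 45.1 M counted reads per library, with 98.7% to 99.2% of them whole within a tolerance of 0.1 in 7708 genes with 1 annotated transcript. In TAMo replicate 1, even numbers made up 98.5% of those read numbers, while their share elsewhere was 61.6% to 66.3%, so its depth may be as low as 21.9 M. Transcripts of the mitochondrial genome took 8.07% and 8.21% of all FPKM in the TAN libraries, 1.20% and 1.32% in the TAMo libraries, and 8.15% and 8.34% in the vehicle libraries. T cell markers were high throughout. Over the 9 listed genes present they summed to 2157 and 2180 FPKM with TAN, 2084 and 2072 FPKM with TAMo, and 2162 and 2196 FPKM with vehicle. Trac was not analysed here. The sum hides opposite moves: with TAMo against vehicle 5 of the 9 were called higher and 4 lower, against 45.7% and 40.7% of all genes tested. Cd2 had 48.2 and 55.3 FPKM with TAMo, against 189.1 and 202.9 FPKM with vehicle (log2 change -1.90). Cd8a fell by 0.64, while Cd247 rose by 0.63. Of 16 neutrophil markers, 15 stayed under 1 FPKM in every library, and S100a8 and S100a9 were listed at 0. Of 20 monocyte and macrophage markers, 15 stayed under 1 FPKM in every library and Csf1r did not exceed 0.0361 FPKM. That list summed to 45.2 and 45.0 FPKM with TAN, 24.0 and 29.1 FPKM with TAMo, and 57.0 and 56.4 FPKM with vehicle. Of its 5 tested genes, Ly6c2 and Apoe fell with TAMo against vehicle, while Cd14, Cd68 and Ms4a6c rose (limma adjusted p = 5.4e-07, 0.0249 and 0.000133 in that order). Ly6c2 had 22.1 and 23.4 FPKM with TAN, 4.39 and 3.64 FPKM with TAMo, and 29.3 and 30.3 FPKM with vehicle. Apoe had 16.8 and 16.6 FPKM with TAN, 7.35 and 7.75 FPKM with TAMo, and 21.7 and 20.7 FPKM with vehicle. Cd68, a macrophage lysosomal protein, had 2.65 and 1.82 FPKM with TAN, 3.63 and 7.05 FPKM with TAMo, and 2.95 and 2.35 FPKM with vehicle. Ms4a6c had 3.12 and 2.85 FPKM with TAN, 4.88 and 6.28 FPKM with TAMo, and 2.38 and 2.62 FPKM with vehicle. Cd14 had 0.0850 and 0.0284 FPKM with TAN, 2.84 and 3.17 FPKM with TAMo, and 0.0852 and 0.0563 FPKM with vehicle. Only its TAMo libraries took Cd14 past the filter on low values. The neutrophil list summed to 1.79 and 1.63 FPKM with TAN, 2.03 and 1.85 FPKM with TAMo, and 0.310 and 0.801 FPKM with vehicle. Most of each sum was Il1r2, the 1 tested gene of that list. It had 1.61 and 1.39 FPKM with TAN, 1.62 and 1.23 FPKM with TAMo, and 0.248 and 0.614 FPKM with vehicle. Against vehicle it was called higher with TAN and with TAMo (limma adjusted p = 0.0104 and 0.00153). Sums of 6 B cell markers were 7.55 and 9.36 FPKM with TAN, 7.14 and 7.80 FPKM with TAMo, and 8.20 and 9.55 FPKM with vehicle. Those of 10 dendritic cell markers were 66.8 and 66.3 FPKM with TAN, 69.6 and 65.4 FPKM with TAMo, and 85.3 and 85.7 FPKM with vehicle. Of its 5 tested genes, 2 were called higher with TAMo against vehicle and 3 lower. Zbtb46 rose, at 5.90 and 5.09 FPKM with TAMo against 1.93 and 1.51 FPKM with vehicle, and H2-Eb1 rose by 0.87 on the log2 scale. Cd74 fell by 1.24, H2-Aa by 0.63 and H2-Ab1 by 0.24. The part of the mitochondrial share and of these markers in the results was not tested.

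**Figure D1:**
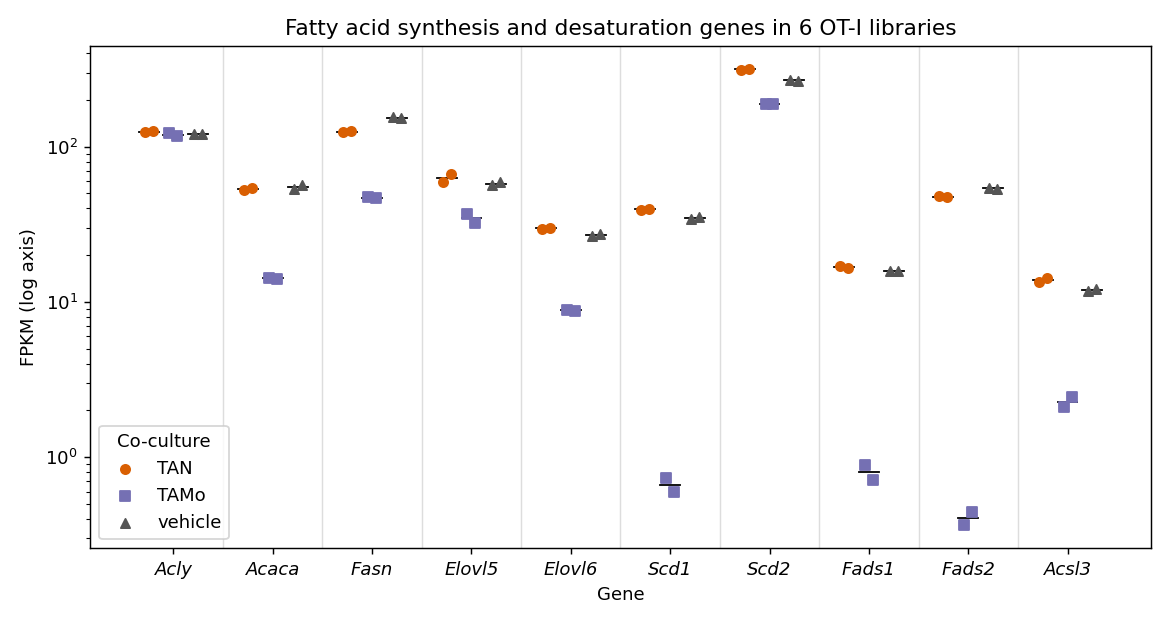
FPKM of the 10 genes in each of the 6 libraries on a log axis, with the groups TAN, TAMo and vehicle side by side for each gene; points are libraries and black bars group means. Scd1, Fads1 and Fads2 lay under 1 FPKM in both TAMo libraries, while Acly lay between 117 and 126 FPKM in all 6.

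With TAMos, 9 of the 10 genes fell against vehicle and none rose. In that comparison 40.7% of all genes tested were called lower, 45.7% higher and 86.5% in either direction (limma on log2(FPKM + 1), adjusted p under 0.05 over all genes), so a call alone separates little. By size, 7 of the 10 fell by at least 1 on the log2 scale, as did 14.4% of all genes tested. The median change of the 10 genes was -1.79, and that of all genes was 0.057. In bulk RNA, fewer cells that express a gene and less of its RNA per cell cannot be told apart.

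The largest falls were those of desaturases. Fads2 encodes the desaturase that starts the conversion of essential fatty acids to longer polyunsaturated ones (GRCm38 chromosome 19, 10062765 to 10101746). It had 0.363 and 0.446 FPKM in the TAMo libraries, against 54.4 and 53.3 FPKM in the vehicle libraries. The groups lay far apart, a 133-fold lower mean with TAMo and a log2 change of -5.29 with a standard error of 0.050 (limma adjusted p = 3.89e-10). Only 4 of the 10727 genes tested had a larger fall on this scale. With a pseudocount of 0.1 in place of 1 the change was -6.75.

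Scd1 encodes a stearoyl-CoA desaturase, which turns saturated into monounsaturated fatty acids (chromosome 19, 44394455 to 44407879). It had 0.736 and 0.595 FPKM with TAMo, against 34.3 and 35.2 FPKM with vehicle. Its mean was 52.2-fold lower with TAMo, at a log2 change of -4.42 ± 0.057 (adjusted p = 1.24e-09), and 33 genes of those tested fell more. If the union of its annotated exons was the length used, those TAMo values stand for about 158 and 121 reads, or 79.0 in place of 158 at the lower depth of TAMo replicate 1. With a pseudocount of 0.1 the change was -5.51.

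Fads1, whose enzyme acts after that of Fads2 in the same polyunsaturated pathway, lies beside it on chromosome 19 (10182888 to 10196877). It had 0.885 and 0.715 FPKM with TAMo, against 15.9 and 15.7 FPKM with vehicle. This was a 19.8-fold lower mean and a log2 change of -3.22 ± 0.067 (adjusted p = 7.71e-09), or -4.15 with a pseudocount of 0.1. All 3 of these genes stayed under 1 FPKM with TAMo and above 15 FPKM with vehicle.

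Scd2, the copy of Scd1 that is widely expressed outside the liver (chromosome 19, 44293674 to 44306864), behaved otherwise. It had 189.4 and 189.6 FPKM with TAMo, against 267.0 and 266.7 FPKM with vehicle, and it was the highest of the 10 genes in every library. Its mean was 1.41-fold lower with TAMo, a log2 change of -0.49 ± 0.024 (adjusted p = 6.5e-07). Scd1 amounted to 0.389% and 0.314% of Scd2 in the TAMo libraries, against 12.8% and 13.2% in the vehicle libraries. Reads of Scd2 counted to Scd1 therefore reached at most that small share in the TAMo libraries.

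Acsl3, Acaca, Fasn and Elovl6 came next, with log2 changes between -1.99 and -1.51. Acsl3, a long-chain acyl-CoA synthetase (chromosome 1, 78657825 to 78707743), had 2.10 and 2.43 FPKM with TAMo, against 11.8 and 12.1 FPKM with vehicle, a 5.27-fold lower mean (log2 change -1.99 ± 0.071, adjusted p = 1.11e-07). The gene Utp14b overlaps it on the same strand, at 0.758 and 0.793 FPKM with TAMo and 2.49 and 2.41 FPKM with vehicle, and the sources do not tell how reads of the overlap were assigned. Acaca encodes acetyl-CoA carboxylase, the committed step of synthesis (chromosome 11, 84129672 to 84401651). It had 14.3 and 14.0 FPKM with TAMo, against 53.7 and 56.3 FPKM with vehicle, a 3.89-fold lower mean (-1.89 ± 0.040, adjusted p = 8.3e-09). The libraries of the 2 groups did not overlap for either gene.

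Fasn, the gene of fatty acid synthase, which joins malonyl units into palmitate (chromosome 11, 120805846 to 120824547), had 47.4 and 46.6 FPKM with TAMo, against 154.5 and 153.0 FPKM with vehicle. This was a 3.27-fold lower mean (-1.69 ± 0.027, adjusted p = 2.43e-09). Elovl6, which lengthens palmitate to stearate (chromosome 3, 129532355 to 129638495), had 8.88 and 8.76 FPKM with TAMo, against 26.5 and 27.3 FPKM with vehicle, a 3.05-fold lower mean (-1.51 ± 0.041, adjusted p = 2.68e-08). The TAMo mean was 30.5% of the vehicle mean for Fasn and 32.8% for Elovl6.

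Elovl5, an elongase of polyunsaturated fatty acids (chromosome 9, 77917364 to 77984519), fell less. It had 36.9 and 32.1 FPKM with TAMo, against 56.3 and 59.4 FPKM with vehicle, a 1.68-fold lower mean (-0.73 ± 0.077, adjusted p = 5.43e-05). Acly encodes ATP citrate lyase, which splits citrate to give cytosolic acetyl-CoA and stands at the head of the pathway (chromosome 11, 100476353 to 100528000). It had 121.7 and 117.1 FPKM with TAMo, against 121.6 and 120.4 FPKM with vehicle, and the groups overlapped. Its log2 change of -0.019 ± 0.029 did not pass the test (adjusted p = 0.551), whereas it was called higher when libraries were rescaled to the same sum (0.18, adjusted p = 0.000711) and lower when they were centred on the median ratio (-0.081, adjusted p = 0.0373).

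Rescaling to the same sum moved the median of all genes by 0.19 upward in this comparison, since the deposited FPKM summed to 546324 and 548039 with TAMo and to 630749 and 629901 with vehicle. Relative to that shift the order of the 10 genes stayed as it was, and all 9 falls held under each of the 15 alternatives tried, with adjusted p of at most 0.00145. The libraries of the 2 groups did not overlap for 9 of the 10 genes, against 92.7% of all genes tested.

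**Figure D2:**
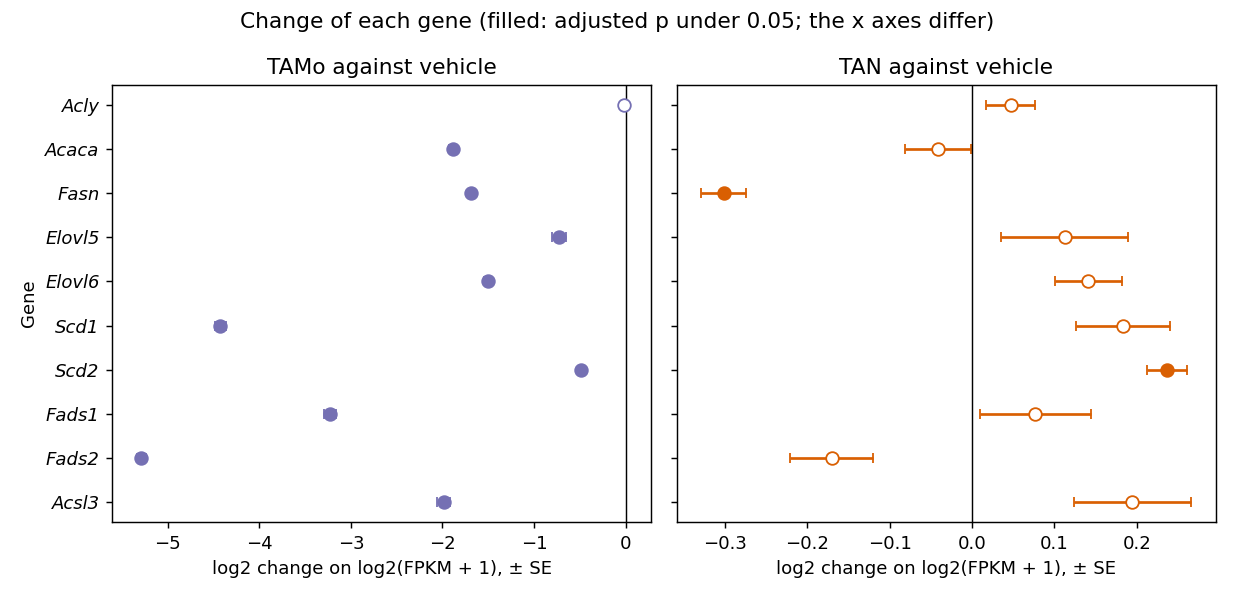
Log2 change on the log2(FPKM + 1) scale of each of the 10 genes for TAMo against vehicle (left) and TAN against vehicle (right), with the standard error of the limma model; filled points passed the test and the x axes differ in range. With TAMo the changes ran from -5.29 (Fads2) to -0.019 (Acly), and with TAN from -0.30 (Fasn) to 0.24 (Scd2).

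With TANs, the same genes moved little: 1 rose, 1 fell and 8 did not pass the test against vehicle. The vehicle libraries are those of the TAMo comparison. Of all genes tested, 9.37% were called higher and 11% lower, 20.3% in all, so the share among the 10 genes was that of the background. Leaving out any 1 of the 4 TAN and vehicle libraries brought the calls over all genes to between 725 and 829, against 2180. The median change of the 10 genes was 0.095 and that of all genes was -0.0050. Libraries of the 2 groups did not overlap for 8 of the 10 genes, against 64.1% of all genes tested.

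Fasn fell and Scd2 rose. Fasn had 123.6 and 125.6 FPKM with TAN, against 154.5 and 153.0 FPKM with vehicle, a 1.23-fold lower mean (log2 change -0.30 ± 0.027, adjusted p = 0.000931). Scd2 had 311.5 and 317.6 FPKM with TAN, against 267.0 and 266.7 FPKM with vehicle, a 1.18-fold higher mean (0.24 ± 0.024, adjusted p = 0.00134). Both calls held under each of the 15 alternatives, with adjusted p up to 0.0169 for Fasn and 0.0229 for Scd2. Fasn made up 99.6% and 99.7% of Acly with TAN, against 127.1% in both vehicle libraries.

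A further 3 genes lay just past the threshold. Elovl6 had 29.6 and 29.9 FPKM with TAN, against 26.5 and 27.3 FPKM with vehicle (0.14 ± 0.041, adjusted p = 0.0505). Fads2 had 48.2 and 47.2 FPKM with TAN, against 54.4 and 53.3 FPKM with vehicle (-0.17 ± 0.050, adjusted p = 0.0536). Scd1 had 39.3 and 39.9 FPKM with TAN, against 34.3 and 35.2 FPKM with vehicle (0.18 ± 0.057, adjusted p = 0.0642). For each of them the groups did not overlap, and each was called in a fit of the TAN and vehicle libraries alone (adjusted p = 0.0391, 0.012 and 0.0128 in that order). Of the 15 alternatives, Elovl6 was called in 6, Fads2 in 4 and Scd1 in 3, and the largest adjusted p was 0.207 for Elovl6, 0.236 for Fads2 and 0.248 for Scd1.

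Acsl3, at 13.3 and 14.3 FPKM with TAN against 11.8 and 12.1 FPKM with vehicle, had an adjusted p of 0.099. Fads1 (0.077 ± 0.067), Elovl5 (0.11 ± 0.077), Acly (0.047 ± 0.029) and Acaca (-0.041 ± 0.040) had adjusted p between 0.307 and 0.516. Acaca and Elovl5 were the genes whose TAN and vehicle libraries overlapped.

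Between the co-cultures themselves, 9 of the 10 genes were higher with TAN than with TAMo and none was lower, in a comparison in which 40.6% of all genes tested were called higher, 46% lower and 86.6% in either direction. The libraries of the 2 groups did not overlap for all 10 genes, against 93% of all genes tested. At least 1 on the log2 scale separated 7 of the 10, as it did 14.3% of all genes in that direction. It shares its TAN libraries with the comparison of TAN with vehicle and its TAMo libraries with that of TAMo with vehicle. Fads2 differed by 5.12 ± 0.050, Scd1 by 4.61 ± 0.057, Fads1 by 3.30 ± 0.067, Acsl3 by 2.18 ± 0.071, Acaca by 1.85 ± 0.040, Elovl6 by 1.65 ± 0.041 and Fasn by 1.39 ± 0.027, with adjusted p of at most 7.01e-08. Scd2 differed by 0.73 ± 0.024 and Elovl5 by 0.84 ± 0.077. Acly, at 124.1 and 126.0 FPKM with TAN against 121.7 and 117.1 FPKM with TAMo, did not pass (0.066 ± 0.029, adjusted p = 0.0665), was called lower with TAN when libraries were rescaled to the same sum (-0.13), and was called higher when they were centred on the median ratio (0.14) or quantile-normalised (0.086).

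The order of levels within a library changed accordingly. With TAN the order was Scd2, Acly, Fasn, Elovl5, Acaca, Fads2, Scd1, Elovl6, Fads1 and Acsl3, with Acly and Fasn within their spread of each other. With TAMo it was Scd2, Acly, Fasn, Elovl5, Acaca, Elovl6, Acsl3, Fads1, Scd1 and Fads2, with Fads1 and Scd1 overlapping between libraries. With vehicle it was Scd2, Fasn, Acly, Elovl5, Acaca, Fads2, Scd1, Elovl6, Fads1 and Acsl3, where Elovl5 overlapped Acaca and Acaca overlapped Fads2. The summed level of the 10 genes was 818.1 and 837.5 FPKM with TAN, 422.6 and 412.4 FPKM with TAMo, and 796.0 and 799.3 FPKM with vehicle. Scd2 held 38.1% and 37.9% of that sum with TAN, 44.8% and 46.0% with TAMo, and 33.5% and 33.4% with vehicle.

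**Figure D3:**
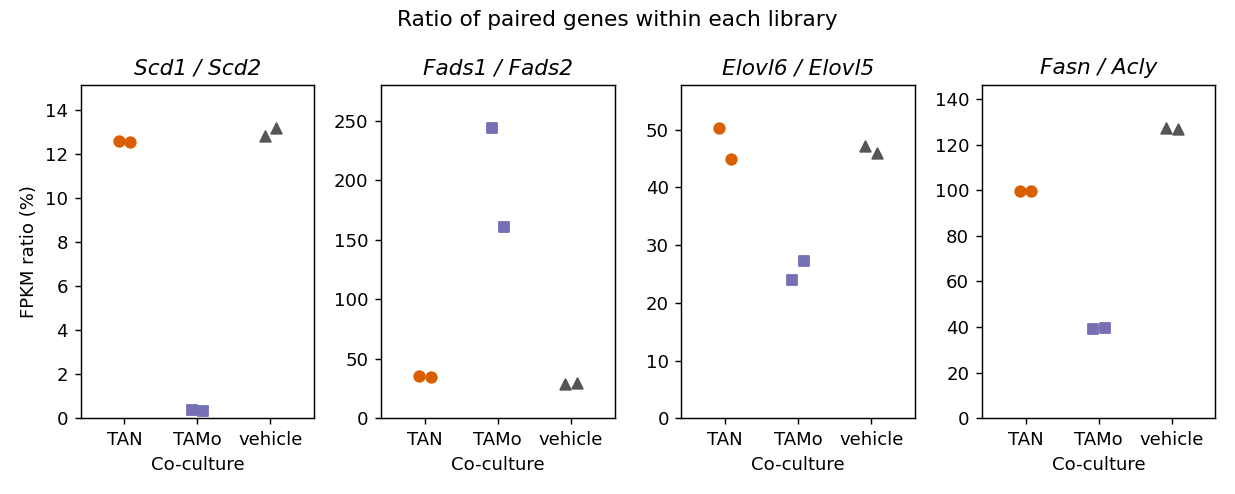
FPKM of a gene as a percentage of its partner within each library, for the pairs Scd1 and Scd2, Fads1 and Fads2, Elovl6 and Elovl5, and Fasn and Acly, with 2 libraries per group. The TAMo libraries stood apart for every pair, at 0.389% and 0.314% for Scd1 against Scd2, and the TAN libraries lay below vehicle for Fasn against Acly.

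Pairs of related enzymes thus changed unequally within a library. Fads1 amounted to 35.3% and 34.8% of Fads2 with TAN, 243.6% and 160.5% with TAMo, and 29.2% and 29.5% with vehicle, where the TAMo ratios rest on values under 1 FPKM. Elovl6 amounted to 50.2% and 45.0% of Elovl5 with TAN, 24.0% and 27.3% with TAMo, and 47.1% and 45.9% with vehicle. These ratios were described and not tested.

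6 further lists of lipid genes were set beside the 45.7% of all genes tested that were called higher and the 40.7% called lower with TAMo. Regulators of the pathway moved in both directions. Of 18 listed, 14 were tested, of which 5 rose, 7 fell and 2 did not pass. Their median of -0.15 lay below the 0.057 of all genes. When libraries were rescaled to the same sum it was 0.051, with 7 higher and 6 lower. That rescaling put the median of all genes at 0.25, with 5750 of 10727 called higher and 3615 lower. Srebf1, the gene of SREBP-1, had 40.6 and 36.8 FPKM with TAMo, against 84.6 and 84.0 FPKM with vehicle (log2 change -1.10 ± 0.049, adjusted p = 3.6e-07). Insig1, which encodes an SREBP-retaining protein and is itself an SREBP target, averaged 13.5 ± 0.832 FPKM with TAMo, against 50.6 ± 0.764 FPKM with vehicle (SD, n = 2 each; log2 change -1.83 ± 0.047, limma adjusted p = 2.23e-08). Mid1ip1, an activator of acetyl-CoA carboxylase, fell by 1.87 ± 0.037. Srebf2 had 151.7 FPKM with TAMo and 177.4 FPKM with vehicle on average (-0.22 ± 0.028, adjusted p = 0.000156), a call lost when libraries were rescaled to the same sum (adjusted p = 0.490). Scap, the escort of SREBPs, rose by 0.27 ± 0.035.

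With TAN, Srebf1 had 77.2 and 74.0 FPKM, against 84.6 and 84.0 FPKM with vehicle, and did not pass (-0.16 ± 0.049, adjusted p = 0.0651). Insig1 (0.021 ± 0.047) and Srebf2 (0.055 ± 0.028) did not pass either. Scap fell by 0.17 ± 0.035 (limma adjusted p = 0.0166), a call lost with no filter on low values or no variance trend. It was also lost without TAN replicate 2 or either vehicle library.

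Of the genes listed around acetyl-CoA, malonyl-CoA and reducing power, all 11 tested of 13 listed fell with TAMo, against 40.7% of all genes tested. Their median was -0.86, and that of all genes was 0.057. When libraries were rescaled to the same sum, 10 of the 11 fell, with a median of -0.67 against 0.25 over all genes. By size, 3 of the 11 fell by at least 1 on the log2 scale, against 14.4% of all genes tested. Not all of the 11 encode suppliers, Mlycd and Cs being among those that do not. Idh1, the cytosolic isocitrate dehydrogenase, had 2.09 and 2.36 FPKM with TAMo, against 7.17 and 6.69 FPKM with vehicle (-1.30 ± 0.074). Slc25a1, the mitochondrial citrate carrier, fell by 1.13 ± 0.042, and Acss2, an acetyl-CoA synthetase, by 1.01 ± 0.077. The carrier and the carboxylase that flank Acly in the pathway thus fell while Acly did not pass.

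Other desaturases, elongases and enzymes of the elongation cycle did not share a direction. Of 12 tested of 19 listed, 6 rose, 4 fell and 2 did not pass with TAMo, with a median of 0.092, near the shares over all genes. Rescaling to the same sum gave 8 higher, 4 lower and a median of 0.29, and centring on the median ratio gave 5 higher, 5 lower and a median of 0.030. The medians of all genes were 0.25 and -0.0053 in that order. Tecr, which completes each round of elongation, was the exception in size, at 62.4 and 67.4 FPKM with TAMo against 212.9 and 210.2 FPKM with vehicle (-1.69 ± 0.038). Cyb5b, an electron-carrying cytochrome, fell by 0.98 ± 0.036, and Hacd1, an elongation-cycle dehydratase, by 0.77 ± 0.079.

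Among other acyl-CoA synthetases and genes of fatty acid uptake, 12 of 17 were tested, of which 7 fell, 4 rose and 1 did not pass with TAMo, where 40.7% of all genes tested were called lower and 45.7% higher. Fabp5, a fatty acid-binding protein, had 8.97 and 9.12 FPKM with TAMo, against 97.0 and 96.7 FPKM with vehicle (-3.28 ± 0.031). Acsl6, another long-chain synthetase, fell by 2.88 ± 0.041, and Dbi, the acyl-CoA-binding protein, by 2.36 ± 0.064. All 3 fell by more than Acsl3 (-1.99).

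Genes of fatty acid storage and breakdown were called in both directions with TAMo, where 45.7% of all genes tested were called higher and 40.7% lower. Of 24 genes tested for glycerolipid synthesis, remodelling and storage, 13 rose, 8 fell and 3 did not pass (median 0.19). By size, 6 rose and 4 fell by at least 1 on the log2 scale, against 14.9% and 14.4% of all genes tested. The median was 0.39 with libraries rescaled to the same sum (15 higher, 8 lower) and 0.13 with centring on the median ratio (11 higher, 8 lower). Over all genes it was 0.25 and -0.0053 in that order. Hilpda, an inhibitor of lipid droplet breakdown, had 252.8 and 249.5 FPKM with TAMo, against 52.9 and 51.9 FPKM with vehicle (2.24 ± 0.043). Dgat1, which makes triacylglycerol, rose by 1.89 ± 0.061, and Lpin1, a phosphatidate phosphatase, by 1.48 ± 0.072, while Agpat3, an acyltransferase, fell by 1.35 ± 0.037.

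Of 25 genes tested for fatty acid oxidation, 13 rose, 8 fell and 4 did not pass with TAMo (median 0.27). Rescaling to the same sum gave 16 higher, 5 lower and a median of 0.47, against a median of 0.25 over all genes. Cpt1c, a carnitine palmitoyltransferase best known from neurons, had 38.2 and 35.3 FPKM with TAMo, against 0.570 and 0.328 FPKM with vehicle (4.71 ± 0.097). It stayed under 1 FPKM with TAN too (0.741 and 0.676 FPKM), so it passed the filter on low values only through the TAMo libraries. Etfdh, which passes electrons of oxidation to the respiratory chain, rose by 1.77 ± 0.053, and Slc25a20, the mitochondrial acylcarnitine carrier, by 1.72 ± 0.056. The 8 genes that fell did so by at most 0.72. By size, 6 of the 25, Cpt1c among them, rose by at least 1 on the log2 scale. None fell by as much, against 14.9% and 14.4% of all genes tested.

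**Figure D4:**
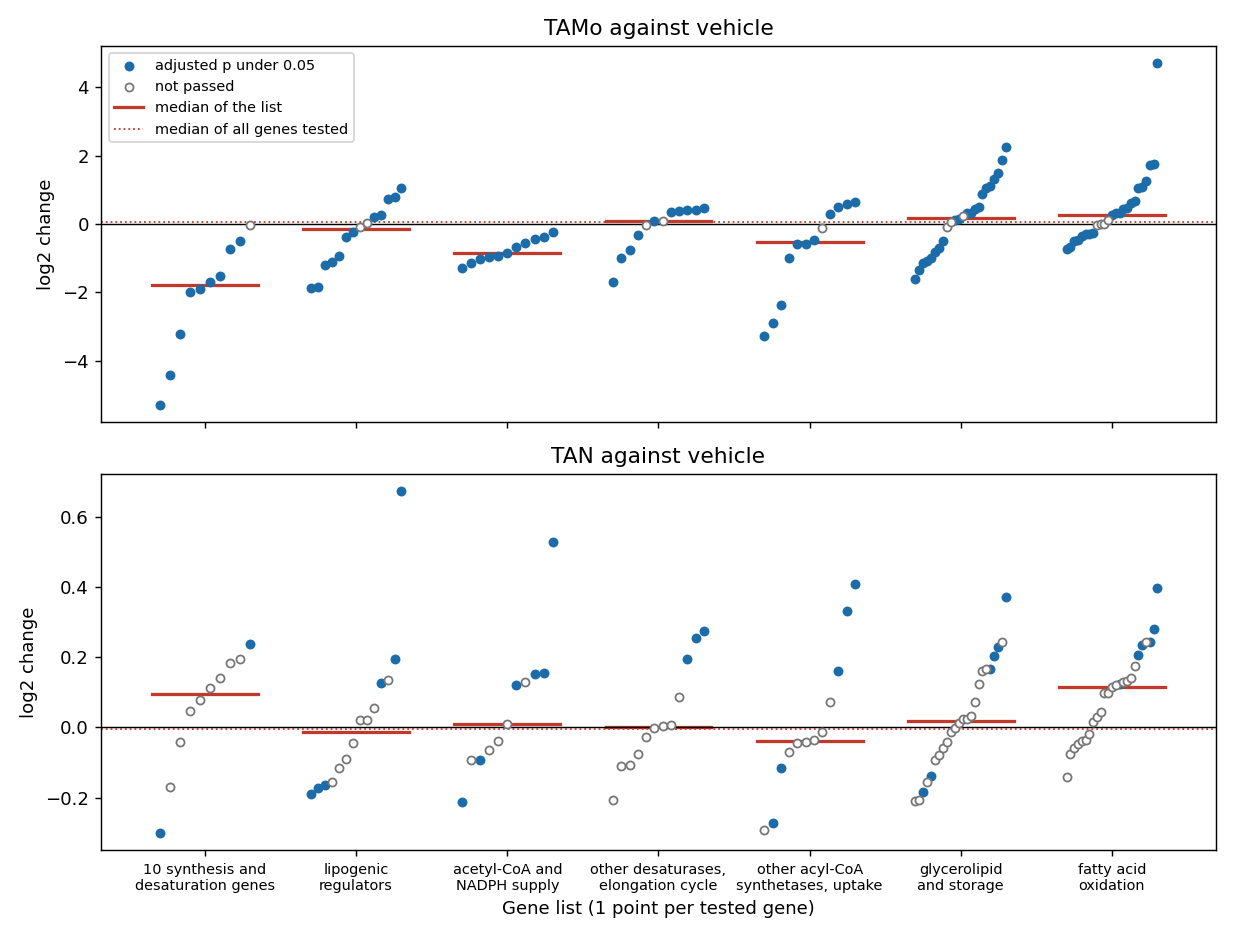
Log2 change of every tested gene of the 10 synthesis and desaturation genes and of 6 further lipid lists, for TAMo against vehicle (top) and TAN against vehicle (bottom); filled points passed the test, solid red lines are list medians and the dotted line is the median of all genes. With TAMo the list medians ran from -1.79 for the 10 genes to 0.27 for fatty acid oxidation, and with TAN from -0.040 to 0.11.

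With TAN the same lists held 32 calls among 98 tested genes, 32.7% of them, against 20.3% of all genes tested, and 5 of them held under every alternative in which the gene was tested. Idh1 rose to 10.8 and 10.1 FPKM with TAN, against 7.17 and 6.69 FPKM with vehicle (0.53 ± 0.074, adjusted p = 0.0047). Crat, a carnitine acetyltransferase, rose by 0.40 ± 0.057, Hilpda by 0.37 ± 0.043 and Cyb5a, a cytochrome that feeds electrons to desaturases, by 0.27 ± 0.037. The fifth, Pparg, a lipid-sensing nuclear receptor named after its values were seen, had 2.35 and 2.12 FPKM with TAN, against 1.09 and 0.972 FPKM with vehicle (0.67), and the filter on a mean of at least 5 FPKM left it out. All 6 calls in the oxidation list and all 3 in the elongation-cycle list were rises.

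Further genes called with TAN were small in size. Cd36, a fatty acid receptor, rose by 0.41, Acsl1 by 0.33, Slc25a20 by 0.28, Hacd3 by 0.25, Dgat1 by 0.23, Plin3 by 0.20, Prkaa1 and Cyb5r3 by 0.19 each and Me2 by 0.16. Acsl6 fell by 0.27, Mcat by 0.21 and Stk11 by 0.19. Each of these was lost under at least 1 alternative, always including the removal of 1 of the TAN or vehicle libraries, with largest adjusted p between 0.0502 for Hacd3 and 0.242 for Mcat. Leaving out any 1 of those 4 libraries gave 8 calls in place of 32.

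For each of the 10 genes, the tested gene with the most similar profile over the 6 libraries was found by the Euclidean distance of mean-centred log2 values among 8828 candidates with at least 5 FPKM in a group. It was Cdk1 for Fads2 (distance 0.11), Lig1 for Scd1 (0.18), Ncapd2 for Fads1 (0.11), Cbx3 for Acsl3 (0.11), Anp32b for Acaca (0.081), Haus3 for Fasn (0.077), Fmnl3 for Elovl6 (0.043), Rps7 for Elovl5 (0.13), Spcs3 for Scd2 (0.059) and Ubap2l for Acly (0.040). Cdk1, the gene of a mitotic kinase, had 62.7 and 60.8 FPKM with TAN, 0.606 and 0.785 FPKM with TAMo, and 67.6 and 64.7 FPKM with vehicle. Such likeness over 6 libraries, of which the 2 TAMo libraries stand apart in most genes, describes the profiles only.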

How the data were processed

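RNA of 6 libraries was measured by sequencing. Per the labels' protocols, RNA was purified with Trizol and libraries were made with a TruSeq kit. The authors deposited FPKM, 1 value for each gene in each library. The build mm10 and the tools featureCounts 1.5.0-p3, HISAT2 2.0.5 and CASAVA are named, without roles, per the submitters' processing notes. Annotation, strand setting and gene length remain not given in the sources used here. Since FPKM depends on the total of counted reads, abundant transcripts move all others, and reads of overlapping or near-identical genes may be shared.

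Groups and replicate numbers came from the labels, and each column matched 1 label. Genes that reached 1 FPKM in 2 or more libraries were tested on log2(FPKM + 1) with limma 3.58.1 in R 4.3.3 (trend, 3 residual and 4.07 prior degrees of freedom), in a model over all 6 libraries; tests were two-sided, with Benjamini-Hochberg adjustment over all genes and a threshold of 0.05. The code was tested on simulated data. A fold is a ratio of mean FPKM; values after ± are standard errors of log2 changes, or SD where stated. Coordinates come from GENCODE mouse release 21 on GRCm38, the assembly of mm10. Depth was read from steps between low values; counts themselves were not used. Of the wider lists, up to 3 called genes per list and comparison with the largest change and at least 5 FPKM in the higher group are named, and Srebf1, Srebf2, Insig1 and Scap; a further gene under this rule is not reported here. The 10 genes and the lists were chosen with earlier results of these data known. A list is described by its counts and median beside those of all genes. The 15 alternatives were another pseudocount (0.1), 2 other filters, 3 scalings, no trend, the 2 groups alone, a replicate block and leaving out each library.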

Additional observations from a re-analysis of the deposited data

How the results depend on the processing

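All 9 falls with TAMo against vehicle and all 9 differences of TAN against TAMo kept their direction and call under the 15 alternatives, as did the calls of Fasn and Scd2 with TAN. Acly changed sign when libraries were rescaled to the same sum (0.18 for TAMo against vehicle and -0.13 for TAN against TAMo), which made 1 member higher with TAMo and 1 lower with TAN against TAMo. Leaving out a library gave it values for TAMo against vehicle between -0.047 and 0.0079, the highest without TAMo replicate 2. Rescaling gives the TAMo libraries larger values, as their FPKM summed to 546324 and 548039. The sums were 628881 and 628328 with TAN, and 630749 and 629901 with vehicle. Without TAMo replicate 2, at 117.1 FPKM of Acly, TAMo replicate 1 was left at 121.7 FPKM, against 121.6 and 120.4 FPKM with vehicle. With TAN against vehicle, the number of members called higher was 2 with median centring, quantile normalisation or a mean of at least 5 FPKM, and 4 in the 2 groups alone, while the number called lower was 2 with that filter and in the 2 groups alone. Leaving out a library gave between 1 and 3 called higher and 1 and 2 called lower. All genes called with TAN against vehicle numbered 2180, but 1331 with no filter on low values, and between 725 and 2574 when a library was left out: 823 and 730 without TAN replicate 1 and 2, and 725 and 829 without vehicle replicate 1 and 2. Same-numbered deviations correlated at 0.057, 0.024 and 0.0078 over 10727 genes, so no strong effect shared by a replicate number was seen. With 2 libraries a group this cannot tell whether equal numbers share a culture or an animal. With the replicate block 2140 genes were called with TAN, and the members called were 1 higher and 1 lower; the calls of the 10 genes were unchanged under the block in all 3 comparisons. Depth limits Scd1, Fads1 and Fads2 with TAMo, and in TAMo replicate 1 the depth itself is uncertain.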
